A study of Mus musculus with 9 samples.

Results

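The genes described are 10 members of the feedback response to bone morphogenetic protein (BMP) and transforming growth factor beta (TGF-beta) signalling, chosen by name: the inhibitor-of-DNA-binding genes Id1, Id2, Id3 and Id4, the inhibitory SMAD genes Smad6 and Smad7, the feedback regulators Skil, Bambi and Pmepa1, and the ligand gene Bmp4. All 10 are rows of the deposited count table of 24062 genes, and all 10 were among the 14223 genes tested. RNA-seq was made from C57BL/6 mouse embryonic fibroblasts (MEFs, connective tissue cells cultured from mouse embryos), which the labels call non-senescent in every group. The p21 group received a lentivirus for overexpression of p21 (the cyclin-dependent kinase inhibitor encoded by Cdkn1a), the p16 group one for p16 (the inhibitor encoded by Cdkn2a), and the empty vector group a control lentivirus. RNA was taken on day 4 from 3 libraries per group, and the labels do not say that these came from separate cultures or embryos, so p-values measure the spread between these libraries, which may be technical. The promoter that drives the delivered genes and the share of infected cells are not given in the sources used here.

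BMP ligands bind paired serine/threonine kinase receptors that phosphorylate SMAD1, SMAD5 and SMAD9, while TGF-beta and activin receptors phosphorylate SMAD2 and SMAD3. Both groups of SMADs enter the nucleus with SMAD4 and switch on, among other genes, the brakes of their own pathway. The Id genes, Smad6 and Bambi are textbook targets of the BMP arm, and Smad7, Skil and Pmepa1 of the TGF-beta arm, although Smad7 and Bambi respond to both. These groups are called BMP-type (6 members) and TGF-beta-type (3 members) here, and Bmp4 was kept apart as the ligand.

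Promoter sequence was used for 5 members (RefSeq, build GRCm38.p6, 250 bases before to 50 bases after the transcript start). Of these 5, the promoters of the 3 members called with p21 are printed so that the SMAD-type motifs in them can be seen. The promoters of Smad7, which was also called with p21, and of Bambi were left out. Their absence here does not mean that they have no entry. The motifs searched on both strands were GGCGCC (its own reverse complement, a GC-rich SMAD motif), GTCTAGAC (its own reverse complement, the palindromic SMAD box) and the single box CAGAC or its complement GTCTG. Each was counted on its own, and no matches overlapped in the promoters searched. GGCGCC was in 11.9% of the 32851 promoters of the RefSeq table, GTCTAGAC in 0.213% and the single box in 49.6%. The Smad6 promoter is chr9:64022010-64022309 on the minus strand, the Id2 promoter chr12:25096043-25096342 on the minus strand and the Id3 promoter chr4:136143572-136143871 on the plus strand, each given 5′ to 3′ with the matches in capitals.
Smad6: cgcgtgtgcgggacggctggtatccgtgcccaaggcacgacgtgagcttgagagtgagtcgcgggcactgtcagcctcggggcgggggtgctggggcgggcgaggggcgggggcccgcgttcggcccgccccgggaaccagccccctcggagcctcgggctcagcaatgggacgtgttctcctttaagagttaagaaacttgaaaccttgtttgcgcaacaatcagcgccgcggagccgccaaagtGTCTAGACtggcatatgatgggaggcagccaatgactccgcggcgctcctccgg
Id2: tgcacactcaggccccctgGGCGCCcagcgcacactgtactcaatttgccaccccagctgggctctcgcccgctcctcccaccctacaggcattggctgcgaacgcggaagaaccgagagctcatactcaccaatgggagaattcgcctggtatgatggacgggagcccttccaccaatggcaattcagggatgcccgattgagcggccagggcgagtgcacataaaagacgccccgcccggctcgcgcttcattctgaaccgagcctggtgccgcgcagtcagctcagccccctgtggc
Id3: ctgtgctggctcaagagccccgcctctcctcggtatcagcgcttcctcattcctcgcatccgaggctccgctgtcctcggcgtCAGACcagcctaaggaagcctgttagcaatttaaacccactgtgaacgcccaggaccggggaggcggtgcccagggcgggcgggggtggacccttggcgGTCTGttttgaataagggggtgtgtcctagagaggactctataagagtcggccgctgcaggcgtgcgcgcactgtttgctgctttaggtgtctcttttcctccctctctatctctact
Smad6 held 1 GTCTAGAC, which begins 4 bases before the start, Id2 held 1 GGCGCC and Id3 held 2 single boxes. The unprinted Id4 promoter held 1 GGCGCC, and the Bmp4 promoter held none of these letters. A match in these windows is a description of the letters and shows no binding.

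The libraries held 44455730 to 63152239 counted reads, and the members had from 297 reads (Id4 in the p16 replicate 3 library) to 18401 reads (Pmepa1 in the p21 replicate 1 library). The labels were checked on the delivered genes: Cdkn1a averaged 1605 CPM (counts relative to library size, with sizes adjusted by TMM) in p21 libraries and 360.2 CPM in empty vector libraries, and Cdkn2a averaged 1731 CPM in p16 libraries and 37.9 CPM in empty vector libraries. The replicate 3 library of every group stood apart by Xist, at 181 to 251 CPM, while no replicate 1 or 2 library exceeded 6.96 CPM. Libraries with the same replicate number deviated together. Fits with the replicate number as a block are therefore given where they change the call of a member. They are also given as counts for the pathway lists they change, and for some pathway genes and markers. As a sum, fibroblast markers were abundant in every library, with a level of 30017 to 32132 CPM in p21 libraries, 31011 to 33609 CPM in p16 libraries and 27964 to 31942 CPM in empty vector libraries. Col1a1 and Col1a2 were the largest parts of the sum. The markers Dcn and Lum were scarce, at 3.16 and 0.542 CPM in p21 libraries. They averaged 2.55 and 0.747 CPM in p16 libraries and 2.65 and 0.744 CPM in empty vector libraries. The called genes were 2816 higher and 2865 lower with p21, 825 higher and 791 lower with p16, and 875 higher and 983 lower in p21 against p16. Under library totals alone they were 2173 higher and 3734 lower, 617 higher and 1235 lower, and 735 higher and 1254 lower in these comparisons.

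Per length of transcript, the members spanned a wide range of expression. Id3 stood first in every group, at 128 ± 6.21 RPKM (CPM divided by transcript length in kilobases) in p21 libraries, 125 ± 2.40 RPKM in p16 libraries and 118 ± 5.98 RPKM in empty vector libraries (SD, n = 3 each). Id1 and Pmepa1 came next, at 71.8 and 58.2 RPKM in p21 libraries, 68.9 and 57.4 RPKM in p16 libraries, and 63.1 and 55.7 RPKM in empty vector libraries. Smad7, Id2, Skil, Bmp4 and Smad6 lay between 16.8 and 8.58 RPKM in p21 libraries, between 15.1 and 7.40 RPKM in p16 libraries and between 14.96 and 6.64 RPKM in empty vector libraries. Bambi was ninth, at 3.47 RPKM in p21 libraries, 3.58 RPKM in p16 libraries and 3.61 RPKM in empty vector libraries, and Id4 was last, at 2.07 RPKM in p21 libraries, 2.03 RPKM in p16 libraries and 1.99 RPKM in empty vector libraries. The only change of order between the groups was that Smad7 stood above Id2 in p21 and p16 libraries and below it in empty vector libraries. Within the empty vector group, Skil at 11.0 ± 0.279 RPKM and Bmp4 at 10.1 ± 2.58 RPKM were neighbours whose means differed by less than the SD of Bmp4.

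**Figure D1:**
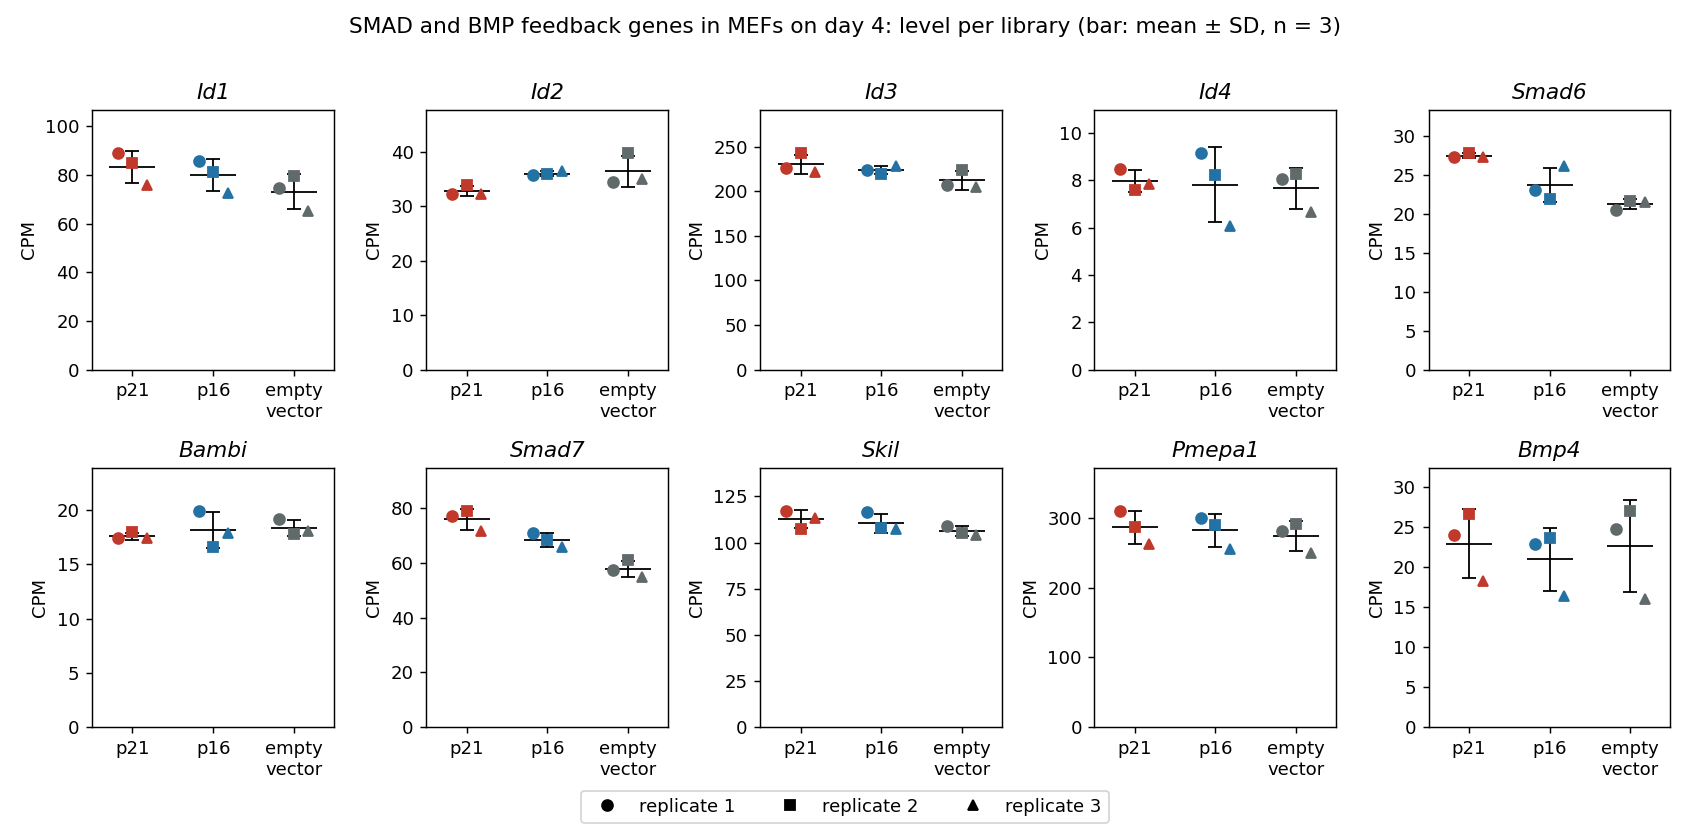
Level of each member in CPM (linear axis from 0) in every library, with p21, p16 and empty vector libraries from left to right, 1 marker shape per replicate number, and bars for the mean ± SD (n = 3). Smad7 and Smad6 show the p21 and p16 libraries above the empty vector libraries, while Bmp4 shows the low replicate 3 library in all 3 groups.

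The first comparison, p21 libraries with empty vector libraries, asks how the feedback genes stand once p21 is supplied. Both inhibitory SMAD genes rose: Smad7 was 1.31-fold and Smad6 1.29-fold higher in p21 libraries than in empty vector libraries. Among the Id genes, Id3 rose 1.08-fold and Id2 fell to 0.899-fold of the empty vector level. Id1, Id4, Bambi, Skil, Pmepa1 and Bmp4 did not pass the edgeR test without the replicate block. Thus 3 members were called higher and 1 lower, beside 39.9% of all genes tested that were called in this comparison (19.8% higher and 20.1% lower), so the share of members called is near that of all genes.

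Smad7, on chromosome 18 (75367529 to 75395935, GRCm38), encodes the inhibitory SMAD that blocks type I receptors of both arms. Its level was 77.0, 78.9 and 71.6 CPM in the p21 libraries (replicates 1 to 3), against 57.4, 60.9 and 54.8 CPM in the empty vector libraries. Every p21 library lay above every empty vector library. Smad7 had a log2 fold change of 0.39 ± 0.053 (SE; 95% interval 0.28 to 0.51), with an edgeR adjusted p of 9.89e-05 over all genes tested. Within replicate numbers the log2 ratio was 0.42, 0.37 and 0.39, so the pairs lay close together. Smad7 stayed past the threshold in all 14 alternative fits, with an adjusted p of at most 7.49e-04.

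Smad6, on chromosome 9 (63953076 to 64022059), encodes the inhibitory SMAD that acts mainly on the BMP arm. It had 27.3, 27.8 and 27.4 CPM in the p21 libraries, against 20.6, 21.7 and 21.6 CPM in the empty vector libraries. The p21 libraries were tightly grouped and all lay above the empty vector libraries. On the log2 scale the difference was 0.37 ± 0.061 (SE; 95% interval 0.24 to 0.50; edgeR adjusted p = 4.69e-04), and the same-number ratios were 0.41, 0.36 and 0.34. Smad6 too was called in all 14 alternative fits, with an adjusted p of at most 0.00348. Smad6 is also abundant in endothelial cells. The summed level of 6 endothelial markers was 7.45 to 9.55 CPM in p21 libraries, 4.999 to 7.55 CPM in p16 libraries and 5.35 to 6.15 CPM in empty vector libraries (scaled by library totals). None of the 4 markers tested was called with edgeR without the block, DESeq2 or limma-voom, 1 had an unadjusted edgeR p under 0.05, and the defining junction gene Cdh5 averaged 0.226 CPM in p21 libraries and 0.174 CPM in empty vector libraries. Of the other defining genes, Emcn averaged 4.09 CPM in p21 libraries and 2.18 CPM in empty vector libraries and was called with the replicate block (edgeR adjusted p = 3.67e-05), and Pecam1 0.165 CPM in p21 libraries and 0.0777 CPM in empty vector libraries. The part of these markers in the Smad6 difference was not tested.

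The Id genes encode helix-loop-helix proteins without a DNA-binding basic region, which hold E proteins away from DNA. Id1, on chromosome 2 (152736251 to 152737410), had 89.0, 85.0 and 76.0 CPM in the p21 libraries, against 74.5, 79.7 and 65.3 CPM in the empty vector libraries. The lowest p21 library lay within the empty vector range, and replicate 3 was lowest in both groups. On the log2 scale the fold change of Id1 was 0.19 ± 0.081 (SE; edgeR adjusted p = 0.0847), and with the replicate number as a block the adjusted p was 4.55e-04, with same-number ratios of 0.26, 0.093 and 0.22. That fit called 5 of the 10 members, beside 48.2% of all genes. Id1 also passed by DESeq2 (adjusted p = 0.0444), in replicates 1 and 2 alone (adjusted p = 0.0122), without the empty vector replicate 2 library (adjusted p = 0.0432) and without the p21 replicate 3 library (adjusted p = 0.0316).

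Id2, on chromosome 12 (25093799 to 25097140), had 32.2, 33.9 and 32.3 CPM in the p21 libraries, against 34.5, 39.8 and 35.1 CPM in the empty vector libraries. All p21 libraries lay below all empty vector libraries, although the gap between the groups was small. Id2 thus had a log2 fold change of -0.15 ± 0.054 (SE; 95% interval -0.27 to -0.037; edgeR adjusted p = 0.0383), and its same-number ratios were -0.10, -0.23 and -0.12. The call ended without the empty vector replicate 2 library, which had the highest Id2 level (adjusted p = 0.181), without the p21 replicate 1 library (0.107) and without the p21 replicate 3 library (0.0985), and also with only these groups in the fit (0.0647) and in replicates 1 and 2 alone (0.0567). In this bulk RNA, fewer cells that express a gene and less RNA per cell cannot be told apart.

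Id3, on chromosome 4 (136143497 to 136145755), had 226, 243 and 222 CPM in the p21 libraries, against 208, 224 and 204 CPM in the empty vector libraries. The groups overlapped, but replicate 2 was highest in both and the same-number ratios were 0.12, 0.11 and 0.12. The log2 fold change of Id3 was 0.12 ± 0.043 (SE; 95% interval 0.024 to 0.21; edgeR adjusted p = 0.0465). The call ended without the empty vector replicate 1 library (adjusted p = 0.145), the empty vector replicate 3 library (0.157), the p21 replicate 1 library (0.0714) or the p21 replicate 2 library (0.188), and with library totals in place of TMM scaling (0.249). It also ended by limma-voom (0.0511), with no filter (0.0554), with only these groups in the fit (0.0755) and in replicates 1 and 2 alone (0.0593), so 9 of 14 alternatives lost it.

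Id4, on chromosome 13 (48261228 to 48266026), was scarce, at 7.60 to 8.49 CPM in p21 libraries and 6.66 to 8.27 CPM in empty vector libraries, and its interval on the log2 scale ran from -0.24 to 0.35 (edgeR adjusted p = 0.776). Of its exon bases, 4.44% lie opposite exons of other genes, and reads there cannot be told apart by strand. Bambi, on chromosome 18 (3507923 to 3516404), encodes a pseudoreceptor without a kinase domain. It ranged from 17.4 to 17.99 CPM in p21 libraries and from 17.8 to 19.2 CPM in empty vector libraries, with a log2 fold change of -0.059 ± 0.068 (SE; 95% interval -0.21 to 0.089; edgeR adjusted p = 0.524). The libraries of both groups overlapped for Id4 and for Bambi.

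Skil, on chromosome 3 (31095058 to 31122577), encodes the SMAD corepressor SnoN. It had 117, 107 and 113 CPM in the p21 libraries, against 109, 105 and 104 CPM in the empty vector libraries, with a log2 fold change of 0.086 ± 0.045 (SE; 95% interval -0.012 to 0.18; edgeR adjusted p = 0.152). It was higher in all 3 same-number pairs, yet the groups overlapped. Pmepa1, on chromosome 2 (173224458 to 173276533), encodes a membrane protein that sequesters SMAD2 and SMAD3. It had 309.9, 286 and 262 CPM in the p21 libraries, against 281, 291 and 249.6 CPM in the empty vector libraries, with a log2 fold change of 0.063 ± 0.073 (SE; 95% interval -0.095 to 0.22; edgeR adjusted p = 0.525). The replicate 3 library of both groups was its lowest.

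Bmp4, on chromosome 14 (46383520 to 46390669), encodes the ligand. It had 24.0, 26.6 and 18.2 CPM in the p21 libraries, against 24.8, 27.1 and 16.1 CPM in the empty vector libraries. The spread between replicate numbers was far wider than that between groups, and replicate 3 was low in both. Its log2 fold change was 0.012 ± 0.19 (SE; 95% interval -0.39 to 0.42; edgeR adjusted p = 0.967), and its sign differed with library totals alone (-0.037). Of its exon bases, 3.96% lie opposite exons of another gene.

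**Figure D2:**
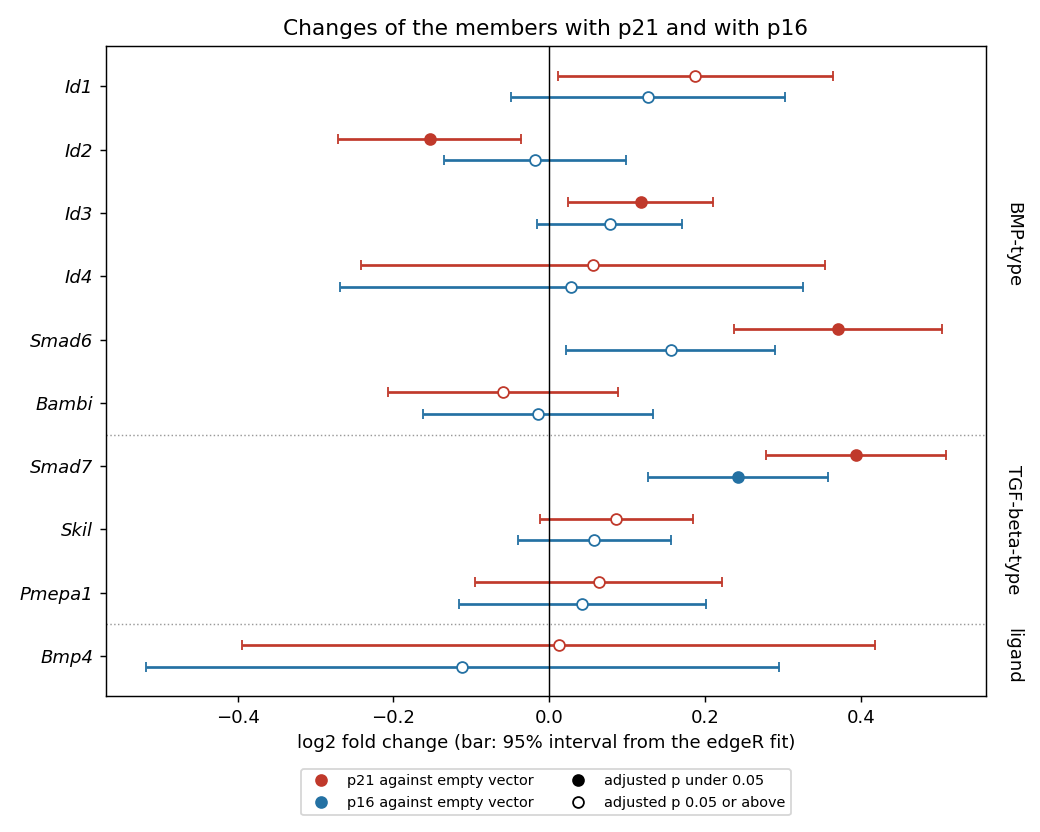
Log2 fold change of each member relative to the empty vector libraries, with 95% intervals, p21 drawn above p16, filled where the edgeR adjusted p was under 0.05. Smad7 and Smad6 lie farthest above 0 with p21, at 0.39 and 0.37, and Id2 lies lowest of the called members, at -0.15.

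The p16 libraries were compared with the same empty vector libraries to ask this of the second inhibitor. Smad7 rose 1.18-fold and was the only member called of the 10, beside 11.4% of all genes tested (5.8% higher and 5.56% lower), again a share near that of all genes. Smad6 was 1.11-fold higher, did not pass the test, and still had every p16 library above every empty vector library. No Id gene, Bambi, Skil, Pmepa1 or Bmp4 passed. The empty vector libraries are the same as in the p21 comparison, so the values of both comparisons stand side by side here and their likeness is not a result.

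Smad7 had 70.8, 68.1 and 65.8 CPM in the p16 libraries, against 57.4, 60.9 and 54.8 CPM in the empty vector libraries. The groups did not overlap. With p16 its log2 fold change was 0.24 ± 0.053 (SE; 95% interval 0.13 to 0.36; edgeR adjusted p = 0.0130), with same-number ratios of 0.30, 0.16 and 0.26. Without the p16 replicate 1 library, the highest of the p16 group, the adjusted p was 0.0534.

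Smad6 had 23.1, 21.9 and 26.2 CPM in the p16 libraries, against 20.6, 21.7 and 21.6 CPM in the empty vector libraries. The p16 replicate 3 library stood well above the others of its group, and the p16 replicate 2 library only just above the empty vector range. The log2 fold change was 0.16 ± 0.062 (SE; 95% interval 0.022 to 0.29; edgeR adjusted p = 0.129), and the same-number ratios were 0.17, 0.016 and 0.28.

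Of the Id genes, Id1 had 85.6, 81.4 and 72.6 CPM in the p16 libraries, against 74.5, 79.7 and 65.3 CPM in the empty vector libraries. Its p16 libraries overlapped the empty vector libraries, with replicate 3 again lowest. With p16 the log2 fold change of Id1 was 0.13 ± 0.081 (SE; edgeR adjusted p = 0.357), and with the replicate number as a block the adjusted p was 0.0267, which makes Id1 and Smad7 the 2 members called in that fit, beside 21.4% of all genes. Id2, at 35.7 to 36.5 CPM in p16 libraries and 34.5 to 39.8 CPM in empty vector libraries, had a log2 fold change of -0.018 (edgeR adjusted p = 0.876). Id3 averaged 224 ± 4.30 CPM in p16 libraries and 212 ± 10.7 CPM in empty vector libraries (SD, n = 3 each; log2 fold change 0.077 ± 0.043, edgeR adjusted p = 0.283). Id4 ranged from 6.05 to 9.15 CPM in p16 libraries and from 6.66 to 8.27 CPM in empty vector libraries, overlapping in full.

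The remaining members overlapped between p16 and empty vector libraries. Bambi ranged from 16.6 to 19.9 CPM in p16 libraries and from 17.8 to 19.2 CPM in empty vector libraries, with a log2 interval of -0.16 to 0.13. Skil ranged from 107 to 116 CPM in p16 libraries and from 104 to 109 CPM in empty vector libraries (log2 interval -0.040 to 0.16). Pmepa1, the most abundant of the TGF-beta-type members per length, ranged from 255 to 300.1 CPM in p16 libraries and from 249.6 to 291 CPM in empty vector libraries (-0.12 to 0.20). Bmp4 had 22.9, 23.6 and 16.4 CPM in the p16 libraries, against 24.8, 27.1 and 16.1 CPM in the empty vector libraries, with a log2 fold change of -0.11 ± 0.19 (SE; edgeR adjusted p = 0.764). As with p21, the replicate 3 library was its lowest in both groups.

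The comparison of p21 with p16 tests the difference between the inhibitors directly. Smad6 was 1.16-fold higher in p21 libraries than in p16 libraries and was the only member called, beside 13.1% of all genes tested (6.15% higher and 6.91% lower), and this share too is near the background. Smad7 was 1.11-fold higher and Id2 stood at 0.910-fold in p21 libraries, both without overlap between the groups and neither past the threshold. Libraries without overlap were found for 3 of the 10 members, beside 31.2% of all genes in this comparison. The same count was 3 members (Smad7, Smad6 and Id2) beside 49.1% of all genes for p21 against the empty vector, and 2 members (Smad7 and Smad6) beside 32.7% for p16 against the empty vector.

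Smad6 had 27.3, 27.8 and 27.4 CPM in the p21 libraries, against 23.1, 21.9 and 26.2 CPM in the p16 libraries. The p16 replicate 3 library came close to the p21 libraries, and the other p16 libraries lay clearly below. Between the inhibitors the log2 fold change of Smad6 was 0.21 ± 0.061 (SE; 95% interval 0.081 to 0.35; edgeR adjusted p = 0.0374), and the same-number ratios were 0.24, 0.34 and 0.065. The call ended without the p21 replicate 1 (adjusted p = 0.0956), replicate 2 (0.0878) or replicate 3 library (0.0642), without the p16 replicate 1 (0.126) or replicate 2 library (0.159), with library totals alone (0.0539) and with only these groups in the fit (0.0678).

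Smad7 had 77.0, 78.9 and 71.6 CPM in the p21 libraries, against 70.8, 68.1 and 65.8 CPM in the p16 libraries. The lowest p21 library was only slightly above the highest p16 library. The log2 fold change of Smad7 was 0.15 ± 0.053 (SE; 95% interval 0.037 to 0.27; edgeR adjusted p = 0.0806). With the replicate number as a block the adjusted p was 0.00716, and Smad7 and Smad6 were then the 2 members called, beside 22.6% of all genes. Without the p21 replicate 3 library the adjusted p of Smad7 was 0.0382, by DESeq2 0.0405 and in replicates 1 and 2 alone 0.0356.

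Id2 had 32.2, 33.9 and 32.3 CPM in the p21 libraries, against 35.7, 35.9 and 36.5 CPM in the p16 libraries, a log2 fold change of -0.14 ± 0.054 (SE; 95% interval -0.25 to -0.018; edgeR adjusted p = 0.122). All p21 libraries were lower. The other Id genes overlapped between p21 and p16 libraries, with log2 fold changes of 0.061 for Id1, 0.040 for Id3 and 0.028 for Id4. Bambi, Skil and Pmepa1 differed by -0.044, 0.028 and 0.021 and Bmp4 by 0.12 on the log2 scale between p21 and p16 libraries, with edgeR adjusted p-values of 0.729 to 0.898. For Bmp4 the interval was wide, from -0.28 to 0.53.

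**Figure D3:**
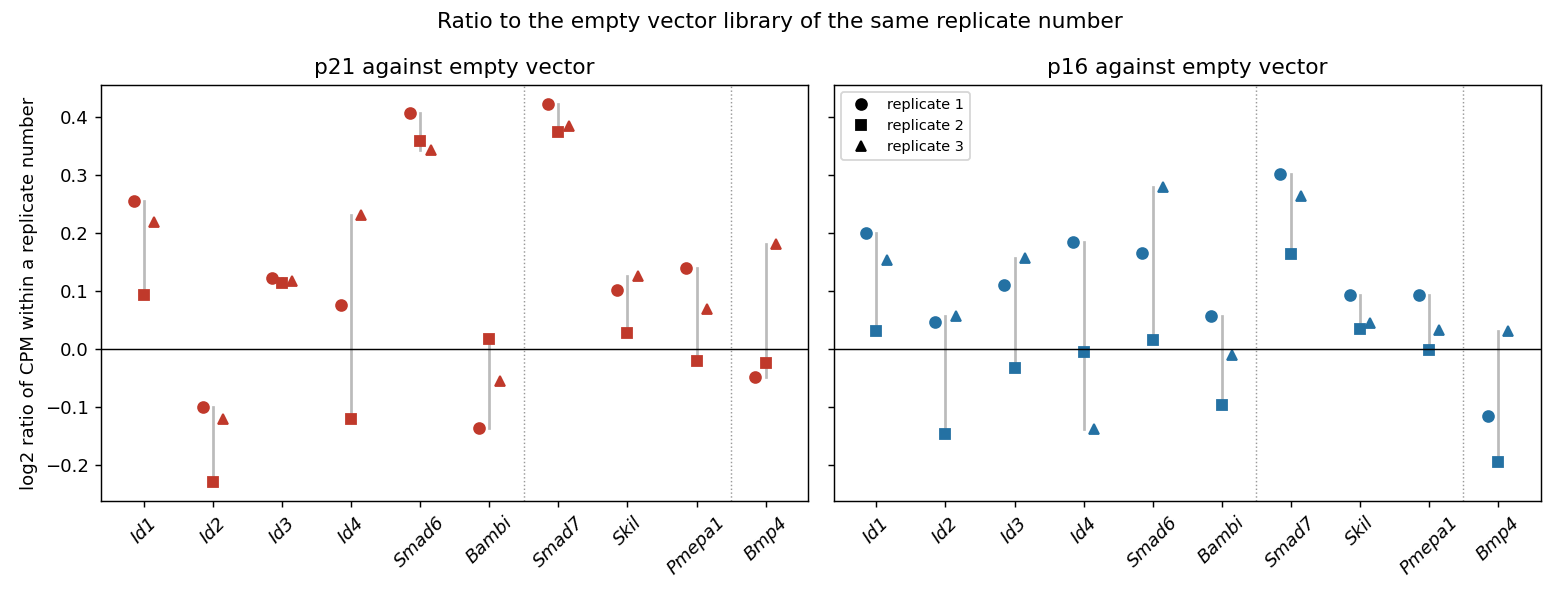
Log2 ratio of each member to the empty vector library of the same replicate number, 3 points per gene, in the left panel for p21 and in the right panel for p16. Smad7 lies at 0.37 to 0.42 with p21 and at 0.16 to 0.30 with p16, while Bmp4 scatters on both sides of 0 with both inhibitors.

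The BMP-type and TGF-beta-type members were set side by side without a test of one class against the other, since the classes are small and were chosen by name. With p21 the median log2 fold change against the empty vector was 0.087 for the BMP-type members and 0.086 for the TGF-beta-type members, beside 0.0011 for all genes. The medians thus lay together, and within each class 1 inhibitory SMAD gene stood above the rest, Smad6 in the first and Smad7 in the second. In the BMP-type class 2 members rose and 1 fell with p21, and in the TGF-beta-type class 1 rose. Among the BMP-type members the range of log2 fold changes was -0.15 to 0.37, and among the TGF-beta-type members 0.063 to 0.39. The BMP-type median was 0.137 without the empty vector replicate 2 library, 0.0292 without the empty vector replicate 3 library and 0.0372 with library totals alone. With Bambi and Smad7 left out, since both respond to both arms, the medians with p21 were 0.12 for the BMP-type and 0.074 for the TGF-beta-type members.

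With p16 the medians were 0.053 for the BMP-type members and 0.058 for the TGF-beta-type members, beside 0.0017 for all genes, with 0 and 1 members called by edgeR. DESeq2 and limma-voom also called 0 BMP-type members with p16, and Smad6 alone had an unadjusted edgeR p under 0.05. In p21 against p16 the medians were 0.034 and 0.028, beside -0.0019 for all genes, with 1 and 0 members called by edgeR. Of the TGF-beta-type members, Smad7 had an unadjusted p under 0.05 there, and DESeq2 called it while limma-voom called 0. The sign of the BMP-type median turned in that comparison without the p21 replicate 1 library (-0.0053) and without the p16 replicate 3 library (-0.0282).

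By library, the mean log2 ratio of the BMP-type members to the empty vector mean was 0.10, 0.11 and 0.044 in the p21 libraries, 0.13, 0.031 and 0.0038 in the p16 libraries, and 0.0006, 0.070 and -0.079 in the empty vector libraries. The BMP-type means overlapped between all groups, while against the empty vector library of the same number they were higher in 3 of 3 p21 libraries and 2 of 3 p16 libraries. For the TGF-beta-type members the mean was 0.25, 0.18 and 0.11 in the p21 libraries, 0.19, 0.12 and 0.035 in the p16 libraries, and 0.024, 0.050 and -0.079 in the empty vector libraries. Here all p21 libraries lay above the empty vector libraries, while the p16 libraries overlapped them. Of the 3 members in this mean, Smad7 alone had p21 libraries without overlap, while Skil and Pmepa1 overlapped the empty vector libraries. Against the same number, the mean was higher in 3 of 3 p21 libraries and 3 of 3 p16 libraries, and in every group replicate 3 was lowest.

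The other genes of the pathway were grouped in lists by role, starting with the ligands. The counts of these lists and of the marker lists stand beside the shares of all genes called by edgeR. These shares were 39.9% with p21, 11.4% with p16 and 13.1% in p21 against p16. With the replicate block they were 48.2%, 21.4% and 22.6%. Each pathway gene named below as called without the block was also called with it. The fits with 1 library left out had no block. The list medians of the log2 fold change ran from -0.30 (E proteins) to 0.25 (ligands) with p21, from -0.11 (E proteins) to 0.19 (other TGF-beta-SMAD targets) with p16, and from -0.15 (E proteins) to 0.45 (ligands) in p21 against p16, beside 0.0011, 0.0017 and -0.0019 for all genes in these comparisons. Each ligand median of 0.25 or 0.45 is the value of 1 scarce gene, named after its values were seen. With p21 it was Gdf7, at 0.230 CPM in p21 libraries and 0.192 CPM in empty vector libraries (edgeR adjusted p = 0.636). In p21 against p16 it was Gdf10, at 0.232 CPM in p21 libraries and 0.177 CPM in p16 libraries (edgeR adjusted p = 0.718). With p21, 2 of the 9 tested BMP ligand genes (of 12 listed) rose, and 0 fell by edgeR, DESeq2, limma-voom or an unadjusted p under 0.05. Bmp8b averaged 18.9 ± 5.99 CPM in p21 libraries and 10.4 ± 3.94 CPM in empty vector libraries (SD, n = 3 each; log2 fold change 0.85 ± 0.29, edgeR adjusted p = 0.0340), and Gdf6 2.65 CPM in p21 libraries and 1.78 CPM in empty vector libraries (adjusted p = 0.0451). The Bmp8b call ended without the empty vector replicate 3 (0.0919), the p21 replicate 1 (0.111) or the p21 replicate 2 library (0.123). With the replicate block the edgeR adjusted p of Bmp8b was 2.09e-09. DESeq2 called 1 ligand gene with p21. The Gdf6 call ended without any 1 of the 3 p21 libraries or without the empty vector replicate 2 or 3 library (0.0567 to 0.140). With p16 edgeR called 0 ligand genes higher, also at an unadjusted p under 0.05 and by the other tools, and Gdf5 fell, at 0.240 CPM in p16 libraries and 0.911 CPM in empty vector libraries (edgeR adjusted p = 0.0138, and 0.0701 without the p16 replicate 2 library). DESeq2 called 0 ligand genes lower with p16 and limma-voom 1. In p21 against p16 edgeR called 0 of the 9, with 3 higher and 1 lower at an unadjusted p under 0.05. DESeq2 called 1 higher, limma-voom 0, and edgeR with the replicate block 2 higher.

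Of the 10 BMP and shared receptor genes, 4 rose and 2 fell with p21. Acvrl1, which encodes the type I receptor ALK1, averaged 39.6 ± 0.983 CPM in p21 libraries and 28.2 ± 2.45 CPM in empty vector libraries (SD, n = 3 each), a log2 fold change of 0.49 ± 0.066 (edgeR adjusted p = 9.70e-05). Its coreceptor gene Eng averaged 43.8 CPM in p21 libraries and 34.2 CPM in empty vector libraries (0.36 ± 0.072, adjusted p = 0.00181). Bmpr1a, which encodes the BMP type I receptor ALK3, fell to 99.9 CPM in p21 libraries, against 113 CPM in empty vector libraries (-0.17 ± 0.037, adjusted p = 0.00255). The BMP coreceptor gene Rgma also fell, to 6.54 CPM in p21 libraries, against 12.6 CPM in empty vector libraries (-0.93 ± 0.21, edgeR adjusted p = 0.00341). Acvrl1 and Eng are, like Smad6, abundant in endothelial cells, whose markers are given beside Smad6. With p16, Acvrl1 alone was called, at 35.8 CPM in p16 libraries and 28.2 CPM in empty vector libraries (adjusted p = 0.00614), and with the block 4 receptor genes were higher and 2 lower. Between the inhibitors, Rgma was lower with p21, at 6.54 CPM in p21 libraries and 10.7 CPM in p16 libraries (adjusted p = 0.0461). That call ended without any 1 of these libraries except the p21 replicate 3 library (0.0594 to 0.158). With the replicate block the edgeR adjusted p of Rgma there was 1.13e-06. DESeq2 and limma-voom called 0 receptor genes there, and edgeR with the block called 2 higher and 1 lower.

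Of the 10 tested extracellular antagonists and modulators (of 13 listed), 3 rose and 3 fell with p21 (4 and 3 with the replicate block). Nbl1, which encodes the BMP antagonist DAN, averaged 117 ± 4.05 CPM in p21 libraries and 79.9 ± 2.10 CPM in empty vector libraries (SD, n = 3 each; log2 fold change 0.55 ± 0.040, edgeR adjusted p = 7.12e-07). Fst, which encodes the activin and BMP antagonist follistatin, fell to 114 CPM in p21 libraries, against 130 CPM in empty vector libraries (-0.20 ± 0.050, adjusted p = 0.00784), and Chrdl1, of the chordin family, was at 0.684 CPM in p21 libraries and 1.66 CPM in empty vector libraries (adjusted p = 0.00322). With p16, Nbl1 rose and Fst fell, at 101 and 95.4 CPM in p16 libraries against 79.9 and 130 CPM in empty vector libraries (adjusted p = 5.21e-04 and 3.49e-04). With the block 3 antagonist genes were higher and 2 lower with p16. Both genes were higher with p21 than with p16: Nbl1 had 117 CPM in p21 libraries and 101 CPM in p16 libraries (adjusted p = 0.00404), and Fst 114 CPM in p21 libraries and 95.4 CPM in p16 libraries (adjusted p = 0.00554).

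Among the 6 SMAD transducer genes, 1 rose and 2 fell with p21, and edgeR called 0 with p16 and 0 in p21 against p16, as did DESeq2 and limma-voom. At an unadjusted p under 0.05, 1 was higher with p16 and 1 lower in p21 against p16. With the replicate block edgeR called 1 higher with p16 and 1 lower in p21 against p16: Smad9, at 12.6 CPM in p16 libraries and 10.4 CPM in empty vector libraries (adjusted p = 0.0117), and Smad5, at 64.7 CPM in p21 libraries and 70.6 CPM in p16 libraries (adjusted p = 0.0259), both named after their values were seen. The block also added 1 lower transducer gene with p21, Smad4 (adjusted p = 0.0434), named likewise. The BMP-arm SMAD genes split: Smad9 averaged 14.4 CPM in p21 libraries and 10.4 CPM in empty vector libraries (log2 fold change 0.47 ± 0.10, edgeR adjusted p = 0.00286), and Smad5 64.7 CPM in p21 libraries and 75.2 CPM in empty vector libraries (-0.22 ± 0.045, adjusted p = 0.00224). Smad2, of the TGF-beta arm, had 59.9 CPM in p21 libraries and 66.0 CPM in empty vector libraries (adjusted p = 0.0145, and 0.0607 without the empty vector replicate 1 library). Of 10 further intracellular brakes, 2 rose and 1 fell with p21. The ubiquitin ligase gene Smurf2 had 118 CPM in p21 libraries and 103 CPM in empty vector libraries (0.21 ± 0.039, adjusted p = 0.00118), Tob1 20.96 CPM in p21 libraries and 18.1 CPM in empty vector libraries, and the corepressor gene Tgif2 10.3 CPM in p21 libraries and 13.3 CPM in empty vector libraries (-0.37 ± 0.087, adjusted p = 0.00460). The Tob1 call (adjusted p = 0.0138) ended without the empty vector replicate 2 (0.0628) or the p21 replicate 2 library (0.0519). With p16 edgeR, DESeq2 and limma-voom called 0 brakes, and 1 was lower at an unadjusted p under 0.05. With the replicate block edgeR called 1 brake lower with p16, the corepressor gene Ski (adjusted p = 0.0452), and 2 higher and 1 lower in p21 against p16. Smurf2 and the corepressor gene Ski were higher in p21 against p16, at 118 and 194 CPM in p21 libraries and 105 and 181 CPM in p16 libraries (adjusted p = 0.0123 and 0.0492). Smurf2 lost its call there without the p21 replicate 1 (0.0554) or p16 replicate 1 library (0.0583), and Ski without any 1 of these 6 libraries (0.0515 to 0.182). Of the brakes limma-voom called 1 there and DESeq2 2.

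Other BMP-SMAD targets gave 2 higher and 1 lower of 6 with p21. The homeobox gene Msx2 averaged 19.4 ± 2.78 CPM in p21 libraries, 12.9 ± 1.42 CPM in p16 libraries and 9.60 ± 1.42 CPM in empty vector libraries (SD, n = 3 each). Its log2 fold change was 1.01 ± 0.13 with p21 (edgeR adjusted p = 5.62e-05) and 0.58 ± 0.12 in p21 against p16 (adjusted p = 0.00911). With p16 it was 0.43 ± 0.13 (adjusted p = 0.0493), a call that ended without any 1 empty vector library or without the p16 replicate 1 or 2 library (0.0773 to 0.170). With the replicate block the edgeR adjusted p of Msx2 with p16 was 5.60e-05. Of these targets limma-voom called 0 with p16 and DESeq2 2 higher, and edgeR with the block called 2 higher and 1 lower with p16 and 2 higher in p21 against p16. Atoh8 rose with p21, at 31.8 CPM in p21 libraries and 23.2 CPM in empty vector libraries (adjusted p = 3.11e-04), and the bone transcription factor gene Runx2 fell, at 43.4 CPM in p21 libraries and 51.2 CPM in empty vector libraries (adjusted p = 0.0130, and 0.0545 without the p21 replicate 3 library).

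Of 10 other TGF-beta-SMAD targets, 6 rose and 2 fell with p21, beside the 39.9% of all genes called. The lower ones were Tgfbi and Klf10, named after their values were seen. Tgfbi averaged 49.4 CPM in p21 libraries and 77.0 CPM in empty vector libraries (log2 fold change -0.64 ± 0.16, edgeR adjusted p = 0.00851). Klf10 averaged 44.4 CPM in p21 libraries and 48.5 CPM in empty vector libraries (edgeR adjusted p = 0.0358). Ltbp2, which encodes a latent TGF-beta binding protein family member, averaged 1215 ± 70.1 CPM in p21 libraries, 974 ± 27.4 CPM in p16 libraries and 804 ± 62.2 CPM in empty vector libraries (SD, n = 3 each). With p21 the log2 fold change of Ltbp2 was 0.59 ± 0.055 (edgeR adjusted p = 4.54e-06), and Tsc22d1 rose too, at 245 CPM in p21 libraries and 188 CPM in empty vector libraries (6.37e-05). With p16, 5 of the 10 were higher and 0 lower by edgeR (0 lower also at an unadjusted p under 0.05 and by DESeq2 and limma-voom), beside 11.4% of all genes. With the replicate block edgeR called 6 higher and 1 lower with p16, the lower one being Tgfbi, at 67.8 CPM in p16 libraries and 77.0 CPM in empty vector libraries (adjusted p = 0.00248), named after its values were seen. The block gave 6 higher and 3 lower with p21, and 4 higher and 2 lower in p21 against p16. Without the block, the genes called higher with p16 included Ltbp2 (edgeR adjusted p = 0.00739) and Ctgf (3335 CPM in p16 libraries and 2930 CPM in empty vector libraries, adjusted p = 0.00347). Between the inhibitors, Ltbp2 (adjusted p = 0.00244) and Tsc22d1 (245 CPM in p21 libraries and 215 CPM in p16 libraries, 0.0256) were higher with p21, the second not without the p21 replicate 1 (0.114), p16 replicate 2 (0.101) or p16 replicate 3 library (0.0844). With the replicate block the edgeR adjusted p of Tsc22d1 there was 9.52e-05.

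The E-protein genes, whose products the ID proteins bind, fell with p21 in 3 of 3 cases, beside 20.1% of all genes called lower. Tcf12 averaged 106 ± 1.98 CPM in p21 libraries and 131 ± 4.19 CPM in empty vector libraries (log2 fold change -0.31 ± 0.037, edgeR adjusted p = 4.67e-05), with SDs over 3 libraries each. Tcf3 averaged 117 ± 1.24 CPM in p21 libraries and 144 ± 4.17 CPM in empty vector libraries (-0.30 ± 0.043, adjusted p = 1.73e-04), and Tcf4 76.7 ± 1.82 CPM in p21 libraries and 88.3 ± 3.21 CPM in empty vector libraries (-0.20 ± 0.048, adjusted p = 0.00456). With p16, Tcf3 alone was called, at 129.9 CPM in p16 libraries and 144 CPM in empty vector libraries (adjusted p = 0.0436), and with the block 2 of the 3 were lower. In p21 against p16, Tcf12 (106 CPM in p21 libraries and 123 CPM in p16 libraries, adjusted p = 0.00228) and Tcf3 (117 CPM in p21 libraries and 129.9 CPM in p16 libraries, 0.0411) were lower with p21. The Tcf3 call with p16 ended without any 1 empty vector library or without the p16 replicate 1 or 2 library (0.0609 to 0.166), and that in p21 against p16 without any p21 library or without the p16 replicate 2 or 3 library (0.0639 to 0.134). Proliferation markers moved with all 3 comparisons: 8 of 8 were lower in each, and their summed level was 483 to 536 CPM in p21 libraries, 781 to 818 CPM in p16 libraries and 1041 to 1097 CPM in empty vector libraries. Leukocyte markers were higher with p21 in 4 of 10 cases (7 with the replicate block) and with p16 in 0 by edgeR (3 at an unadjusted p under 0.05, 1 by DESeq2, 0 by limma-voom and 3 with the block), with a summed level of 19.1 to 22.1 CPM in p21 libraries, 14.6 to 23.8 CPM in p16 libraries and 12.6 to 17.3 CPM in empty vector libraries. Of 4 tested chondrocyte and osteoblast markers, 2 were lower with p21 (3 with the block) and 1 with p16 (3 with the block). Those called with p21 were Acan, at 15.3 CPM in p21 libraries, 15.2 CPM in p16 libraries and 29.3 CPM in empty vector libraries, and Sox9, at 14.4 CPM in p21 libraries, 18.1 CPM in p16 libraries and 20.6 CPM in empty vector libraries. The cartilage gene Col2a1 averaged 414 ± 127 CPM in p21 libraries, 462 ± 179 CPM in p16 libraries and 531 ± 208 CPM in empty vector libraries (SD). Its edgeR adjusted p was 0.358 with p21 and 0.722 with p16, and with the block 6.49e-08 and 3.32e-04. Of 9 fibroblast markers, 3 were higher and 2 lower with p21, the lower ones being Pdgfra, at 16.8 CPM in p21 libraries and 33.5 CPM in empty vector libraries (adjusted p = 9.16e-04), and Col3a1, at 1403 CPM in p21 libraries and 1756 CPM in empty vector libraries (adjusted p = 0.00338). The part of these marker lists in the member and E-protein differences was not tested.

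**Figure D4:**
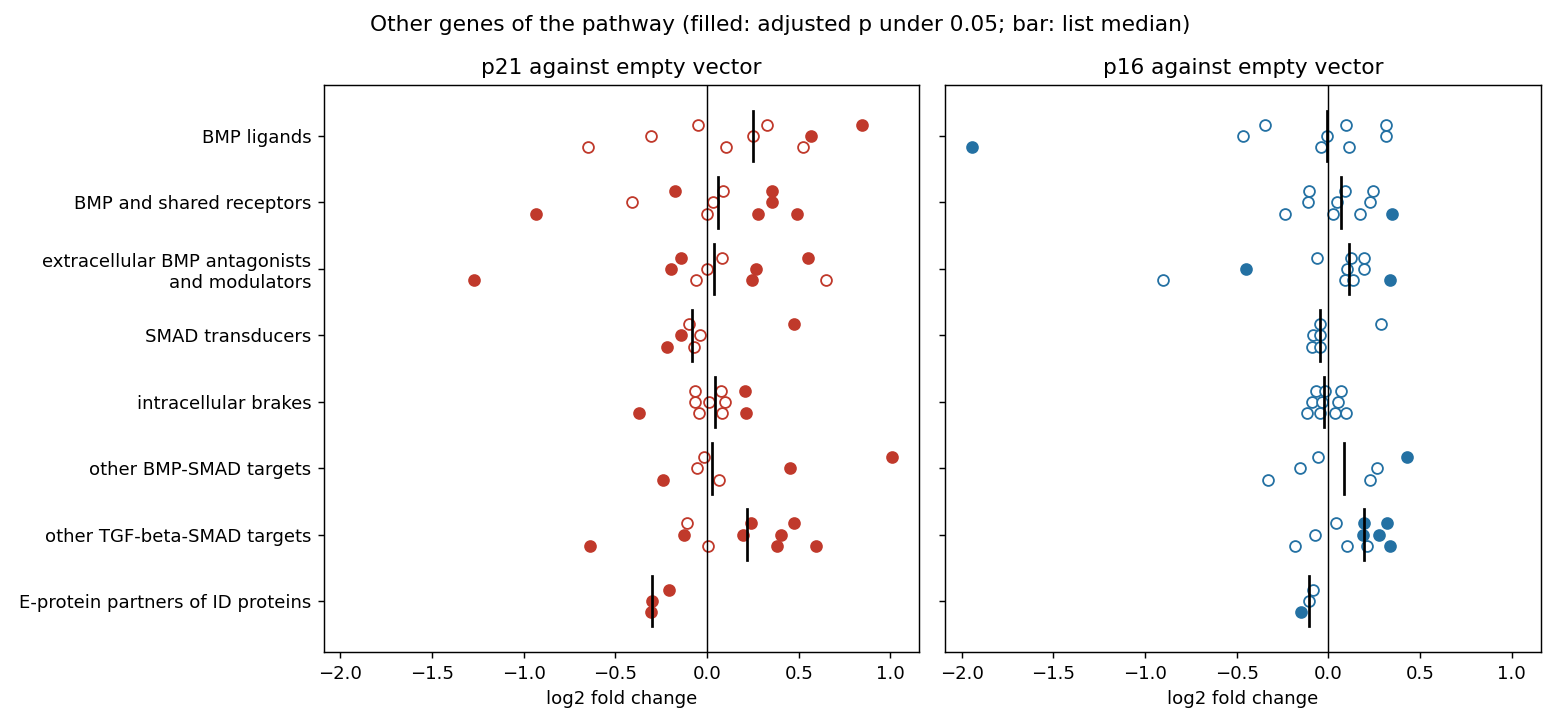
Log2 fold change of the tested genes of each pathway list, relative to the empty vector, p21 in the left panel and p16 in the right panel, with 1 point per gene, filled where the edgeR adjusted p was under 0.05, and a line at the list median. The medians with p21 are 0.22 for the other TGF-beta-SMAD targets and -0.30 for the E-protein genes.

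The genes whose levels ran most like Smad7 and Smad6 across all 9 libraries were taken from 11286 genes with a mean log2 CPM of at least 1. For Smad7 they were Mgll (Pearson r = 0.989), Lrp10 (0.989) and Vamp5 (0.988), and for Smad6 Eps15l1 (0.986), Marveld1 (0.970) and Lamtor1 (0.968). These values describe 9 libraries that fall into 3 groups, and no p-value is given for them.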

How the data were processed

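A deposited table gives raw counts of reads for each gene symbol in all 9 libraries. Alignment to mm10 was, per the submitters' processing notes, done by TopHat2 2.0.14 and Bowtie2 2.2.6, and featureCounts 1.4.6 (Subread) made the counts. The annotation and strand setting are not given in the sources used here, and the library kit keeps no strand.

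The analysis used edgeR 4.0.16 in R 4.3.3: filterByExpr by group (minimum count 10, minimum total 15), TMM scaling, and 1 quasi-likelihood fit of all 9 libraries by group. The two-sided F test was adjusted by Benjamini-Hochberg over all genes tested, with a threshold of 0.05. The standard error of a log2 fold change was its size over the root of F. CPM values use TMM-scaled totals, except the summed markers, which use library totals alone. RPKM divides CPM by the exon length in GENCODE M21 (GRCm38), which also gave coordinates.

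The meaning of the replicate numbers is not given in the labels. Deviations from the group means correlated over genes at r = 0.126 to 0.361 between libraries of 1 number and at -0.246 to 0.106 between numbers, and the best match of all 9 libraries was their own number, so the numbers pair the samples. The fit without the block is the one reported.

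Alternatives were RLE size factors, library totals only, genes without a filter, DESeq2 1.42.0 (Wald test), voom of limma 3.58.1, only the 2 groups compared, the replicate block, replicates 1 and 2 alone, and each library left out in turn. The fit was tested on simulated data for p21 against the empty vector. It recovered 6% of the genes changed by 0.15 on the log2 scale and 38% at 0.3. At 0.6 it recovered 94% and at 1 it recovered 96%. The simulation changed 50 genes at each size and set no difference between replicate numbers. It called 123 genes, against 5681 in the data, which makes the adjusted threshold stricter there. These shares therefore do not carry over to the data. A member that was not called can still have changed by a small amount. Named are all members, Cdkn1a and Cdkn2a, up to 3 genes per pathway list and comparison with the smallest adjusted p past the threshold, and the 3 genes most like 1 member of each class. Of the genes this rule takes, 1 is not reported here. The members and lists were chosen with earlier results of these data known. Figures were drawn with Python 3.11.15, pandas 2.3.3 and matplotlib 3.10.9.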

Additional observations from a re-analysis of the deposited data

How the results depend on the processing

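With the replicate number as a block, which pairs the samples, 3044 genes instead of 1616 were called with p16 and 3214 instead of 1858 in p21 against p16, and the members called were 2 with p16 and 2 in p21 against p16. With each library left out in turn the genes called were 759 to 1167 with p16 and 1074 to 1782 in p21 against p16, and the members called were 2 to 4 with p21, 0 to 1 with p16 and 0 to 1 in p21 against p16. With only the 2 groups compared, 2 members were called with p21 and 0 in p21 against p16. In p21 against p16, library totals alone gave 0 members called, DESeq2 gave 2 and replicates 1 and 2 alone gave 2. The BMP-type median was 0.0372 with p21 under library totals alone. With each library left out it was 0.0292 to 0.137 with p21 and -0.0282 to 0.079 in p21 against p16. The block changed no member call beyond Id1 with p21, Id1 with p16 and Smad7 in p21 against p16.

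No called member changed sign in any alternative, and the signs that turned were those of members not called. Under library totals alone Bmp4 with p21 was -0.037 and Id4 with p16 -0.0029. In replicates 1 and 2 alone, Bmp4 with p21 was -0.040, Id4 with p21 -0.017 and Id4 in p21 against p16 -0.11. With each library left out in turn, the log2 fold change with p21 was -0.032 to 0.11 for Id4 and -0.18 to 0.16 for Bmp4. With p16 it was -0.057 to 0.047 for Id2, -0.099 to 0.18 for Id4, -0.089 to 0.046 for Bambi, -0.022 to 0.11 for Pmepa1 and -0.30 to 0.034 for Bmp4. In p21 against p16 it was -0.0033 to 0.12 for Id1, -0.0006 to 0.066 for Id3, -0.12 to 0.16 for Id4, -0.11 to 0.030 for Bambi, -0.0016 to 0.069 for Skil, -0.046 to 0.081 for Pmepa1 and -0.023 to 0.26 for Bmp4. Over all member results and alternatives, 360 kept direction and side of the threshold, 22 lost a call, 10 gained one and 28 turned sign. The cause of these changes was not tested. Every member had at least 297 reads in every library, and with 3 libraries per group the 95% intervals with p21 were widest for Bmp4 and Id4.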
